A study of Mus musculus with 64 samples.

Results

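Serpins of clade A are secreted mostly by hepatocytes, and 10 of them were followed here through mouse development: the alpha-1 antitrypsin copies Serpina1a, Serpina1b, Serpina1c, Serpina1d and Serpina1e, the antichymotrypsin-like genes Serpina3k, Serpina3m and Serpina3n, the corticosteroid carrier Serpina6 and Serpina12, which encodes vaspin. They were taken by gene symbol, and all 10 were found among the 23338 gene rows of the count tables. The rows came from 64 RNA-seq libraries of untreated C57BL/6 mice (C57BL/6 J in the study's methods), with no altered allele named in the labels. There were 12 single eight-cell embryos (6 male, 6 female), collected at 2.5 days post-coitum from 4 litters, and 4 ES cell lines (2 male, 2 female), each grown in the inhibitor medium called 2i and each a separate line. There were also 24 late-gestation fetal livers and 24 livers of adults aged 15 to 20 weeks, with 12 males and 12 females at each stage. Embryo cDNA was amplified by a single-cell protocol and the sex of the embryos was assigned by the study from Xist and Eif2s3y in these same data, whereas livers and ES cells were sequenced from stranded total RNA. Levels are CPM, the usual per-total scaling of reads on genes, with edgeR's TMM (trimmed mean of M values) scaling applied over the 48 livers together and over embryos and ES lines each on their own. Throughout, a value after ± is the SD between libraries for a level in CPM (12 livers in each group) and the standard error for a log2 difference.

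An inhibitory serpin works as a bait. An exposed stretch of the protein, the reactive centre loop, is cut by a target protease, and the serpin then snaps shut and traps the enzyme in a dead complex. The letters of this loop decide which protease is caught. Alpha-1 antitrypsin is best known for restraining neutrophil elastase, Serpina3n for inhibiting granzyme B and for rising in the acute phase response, and vaspin for inhibiting kallikrein 7. Serpina6 has kept the serpin fold but carries glucocorticoids in blood instead of inhibiting a protease. The mouse genome has several copies of alpha-1 antitrypsin and of antichymotrypsin where the human genome has a single gene of each, and male and female rodents secrete growth hormone in different temporal patterns that set many sex differences of liver genes.

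The 10 genes lay within 0.768 Mb of chromosome 12 (RefSeq positions on GRCm38.p6, the assembly also known as mm10). In order along the chromosome they were Serpina6 at chr12:103646630-103657218, Serpina1b at chr12:103728156-103738189, Serpina1d at chr12:103763587-103773633, Serpina1a at chr12:103853295-103863619, Serpina1c at chr12:103894926-103904950, Serpina1e at chr12:103946931-103956897 and Serpina12 at chr12:104028769-104044443, all on the minus strand. Serpina3k at chr12:104338486-104345739, Serpina3m at chr12:104387157-104394259 and Serpina3n at chr12:104406646-104414334 followed on the plus strand. All 10 are protein-coding genes. The 5 antitrypsin copies were very alike: over 1242 aligned bases of GENCODE coding sequence, each pair was between 96.3% and 98.5% identical, the closest pair being Serpina1a and Serpina1c, which differed at 19 bases. Serpina3k and Serpina3m were 91.7% identical, Serpina3m and Serpina3n 85.2%.

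The copies differed most in the stretch that encodes the reactive centre loop. Leaving out 69 columns where Serpina1a alone has sequence, 86 of 1242 aligned columns (6.92%) were not the same in all 5 copies. In the window of 60 such columns with the most differences 18 differed, against a median of 4 per window. The 60 bases below, all from the last exon and read 5′ to 3′, are shown because they are where one copy can be told from another. Capitals mark positions that are not the same in all 5.

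Serpina1a, chr12:103853757-103853816, minus strand: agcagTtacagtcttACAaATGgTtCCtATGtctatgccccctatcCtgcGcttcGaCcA

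Serpina1b, chr12:103728324-103728383, minus strand: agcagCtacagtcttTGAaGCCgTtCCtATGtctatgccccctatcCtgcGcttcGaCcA

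Serpina1c, chr12:103895094-103895153, minus strand: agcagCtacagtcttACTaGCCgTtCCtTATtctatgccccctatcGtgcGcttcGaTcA

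Serpina1d, chr12:103763762-103763821, minus strand: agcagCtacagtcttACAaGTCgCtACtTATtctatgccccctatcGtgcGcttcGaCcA

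Serpina1e, chr12:103947100-103947159, minus strand: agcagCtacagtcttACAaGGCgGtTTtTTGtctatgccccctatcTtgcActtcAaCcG

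Within this window Serpina1e differed from the other 4 copies at 10 to 12 bases, and those 4 differed from each other at 5 to 10 bases. Such likeness bears on every value below, since reads that aligned to several places were not counted. Of all windows of 100 bases in the transcript, 30.7% for Serpina1c, 50.1% for Serpina1a, 70.7% for Serpina1d, 79.4% for Serpina1b and 85.2% for Serpina1e were found in the transcripts of no other gene. The share was 95.1% for Serpina3k, 93.9% for Serpina3m and 99.8% for Serpina3n, and it was 100% for Serpina6 and Serpina12. Counts of the antitrypsin copies are therefore counts of reads from their distinct parts, so that levels of different copies are uncertain relative to each other. The read length was not given in the sources used here.

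The copies were also alike in front of the gene. A block of 171 bases aligned with no gap in the RefSeq promoters of the 5 copies, with 17 differing columns, and is shown for Serpina1a, whose level did not pass the test between adult sexes, and for Serpina1e, whose level did. Capitals mark columns that are not the same in all 5 copies.

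Serpina1a, chr12:103863575-103863745, minus strand: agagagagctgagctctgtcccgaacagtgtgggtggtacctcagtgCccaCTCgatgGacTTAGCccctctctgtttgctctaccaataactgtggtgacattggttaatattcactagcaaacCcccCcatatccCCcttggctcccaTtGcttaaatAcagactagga

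Serpina1e, chr12:103956910-103957080, minus strand: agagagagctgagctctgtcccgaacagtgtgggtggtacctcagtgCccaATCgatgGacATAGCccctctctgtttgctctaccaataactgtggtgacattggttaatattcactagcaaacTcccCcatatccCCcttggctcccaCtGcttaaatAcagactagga

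In this block 1 base was found in Serpina1e and in none of the other copies, against 3 for Serpina1a, 2 for Serpina1b, 4 for Serpina1c and 7 for Serpina1d. The RefSeq start of Serpina1e lies further downstream than that of the other copies, so that the block spans bases -183 to -13 from its start and bases -126 to 45 from that of Serpina1a. All 5 copies held GTTAAT, part of the sequence bound by the hepatocyte factor HNF1, beginning at base 106 of the block. Searched on both strands, these 6 letters were in 7.10% of the 32851 promoters of the same length, and they were in neither the Serpina12 nor the Serpina3n promoter. No promoter of these 7 genes held TTCNNNGAA, the core letters of a STAT site, which 8.30% of all promoters held. A match or its absence describes these letters in this window only. Promoters of Serpina3k, Serpina3m and Serpina6 were not analysed here.

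Reads on genes ranged from 1567583 to 4757610 in adult livers, from 5145371 to 8499603 in fetal livers, from 4659656 to 7725432 in embryos and from 9857929 to 10386931 in ES lines. By library totals alone, without the TMM scaling of the levels, a count of 3 reads was worth 0.631 to 1.91 CPM in an adult liver and 0.353 to 0.583 CPM in a fetal liver. Reads carried no molecular identifiers, so such limits cover counting error only. The labelled tissue was checked against marker genes, and all 12 hepatocyte markers had reads in both stages, and they summed to a mean of 112125 CPM in adult females, 98586 CPM in adult males, 51813 CPM in fetal females and 51847 CPM in fetal males. All 8 male-biased and all 8 female-biased reference genes of adult liver were called in their known direction. Adult libraries fell into a class of 16 livers with at least 40% of mapped reads on genes and a class of 8 livers below it, with both sexes equally present in each. Alignments that were not unique made up 42.2% to 61.1% of all counted or not unique alignments in adult males and 32.7% to 43.2% in adult females. Only adult female 24 lay above the lowest adult male, so sex and the share of alignments that were not unique can hardly be told apart in adult liver. Of the uniquely aligned reads of fetal livers, 39.9% to 49.0% in males and 34.1% to 38.1% in females lay on no gene. This share did not overlap between the fetal sexes, so the 2 cannot be told apart there.

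A few livers stood apart and are named here because they touch the results. Adult female 18 had 3668 CPM of Serpina1e (7781 reads), in the range of the males, whereas the other 11 adult females had 37.6 to 762 CPM. The same liver had the highest female Serpina3k level (11620 CPM) and the lowest Serpina12 level of all adult livers (4.24 CPM, 9 reads), and its male-biased reference genes stayed at female levels, with Cyp4a12a at 0 reads and Elovl3 at 1.41 CPM. Fetal female 22 had 532 reads of Serpina3k (65.4 CPM), and fetal female 21 had 81 (8.06 CPM), whereas the other 22 fetal livers had 0 to 24 (at most 2.72 CPM). A list of 31 other genes with a median above 100 CPM in adult and below 0.2 CPM in fetal liver, set up after the values of these libraries had been seen, summed to 0.815% of its adult median in fetal female 22, to 0.0759% in fetal female 21 and to 0.00363% to 0.0567% in the other 22. In fetal female 22 Serpina3k stood at 0.746% and Serpina3m at 0.675% of their adult medians, close to the share of that list. Serpina12 stood at 0.646% there (5 reads), but it reached 0.774% in fetal male 5, where the list was at 0.00594%. In fetal female 21 Serpina3k, Serpina3m and Serpina12 stood at 0.0919%, 2.77% and 1.36%, so Serpina3m and Serpina12 were further above the list than Serpina3k was. What set these libraries apart was not tested.

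**Figure D1:**
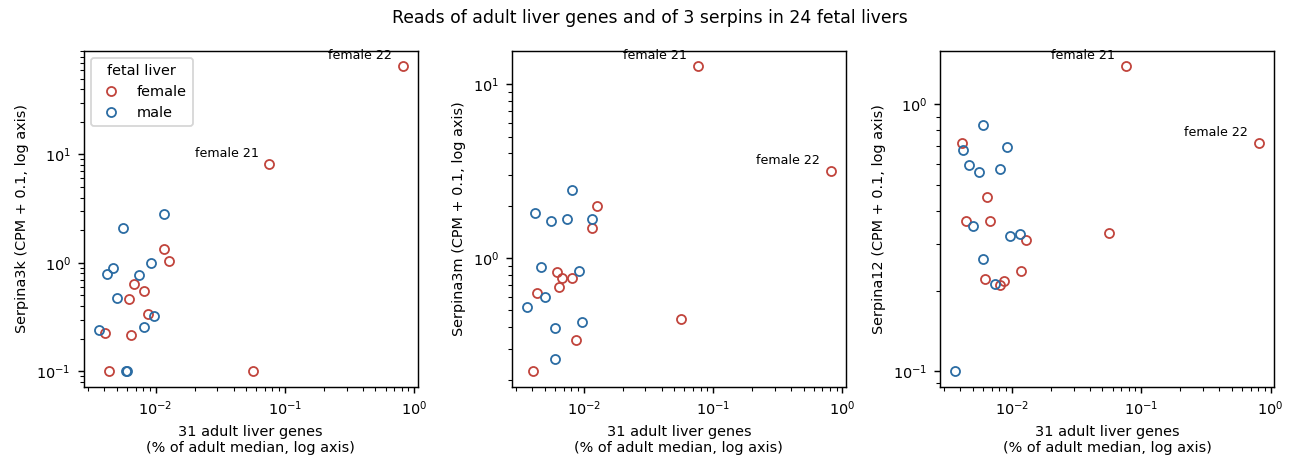
Levels of Serpina3k, Serpina3m and Serpina12 (CPM + 0.1, log axis) in each of the 24 fetal livers against the summed level of 31 other adult liver genes as a percentage of its adult median (log axis), red for females and blue for males. Fetal female 22 lies at 0.815% on the horizontal axis and fetal female 21 has the highest Serpina3m level (12.6 CPM).

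The sexes were first compared in adult liver, where the study asked which genes are sexually dimorphic. Of the 10 serpins, 4 were called, with 2 higher in males and 2 lower. Serpina1e was 3.02 ± 0.58 (log2, SE) higher in males and Serpina12 2.07 ± 0.26 higher, whereas Serpina6 fell by 1.47 ± 0.15 on the log2 scale and Serpina3m by 1.09 ± 0.07 in males relative to females. Calls required a Benjamini-Hochberg adjusted p under 0.1 over all genes tested in edgeR's two-sided quasi-likelihood test and an absolute log2 difference above 0.5. Over the 10372 genes tested 9.49% were called, 3.01% higher and 6.48% lower in males. The median log2 difference was 0.07 over the 10 serpins and -0.00 over all genes.

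Serpina1e showed the widest split. Its level in the 12 males was 3226 CPM at the lowest, 4575 CPM at the median and 6269 CPM at the highest. In the 12 females it was 37.6 CPM at the lowest, 289 CPM at the median and 3668 CPM at the highest. All but 1 of the females lay below every male, and the groups overlapped through adult female 18 alone. The adjusted p was 0.000406 with that liver and 2.91e-08 without it, where the log2 difference became 4.07 ± 0.38. Within the class of 16 livers the difference was 2.55 ± 0.78 (edgeR adjusted p = 0.0367), and within the class of 8 livers it was 4.47 ± 0.37 (edgeR adjusted p = 0.000425). Among females the highest level was 97.5 times the lowest, and 20.3 times when adult female 18 was left out. Among males it was 1.94 times the lowest.

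The other 4 antitrypsin copies stayed under the fold threshold between the sexes. Serpina1a had a mean of 1782 ± 114 CPM in the male livers and 1679 ± 183 CPM in the female ones, and its log2 difference of 0.06 ± 0.06 did not pass the test (edgeR adjusted p = 0.503). Serpina1c was 0.32 ± 0.06 higher in males on the log2 scale (edgeR adjusted p = 0.000286), whereas the log2 difference was -0.25 ± 0.06 for Serpina1d (adjusted p = 0.00128) and -0.16 ± 0.06 for Serpina1b (adjusted p = 0.0440). These 3 differences passed the p threshold alone. The 4 copies together summed to 9712 ± 559 CPM in the male livers and 9707 ± 830 CPM in the female ones. With Serpina1e added, the 5 copies summed to 14302 ± 1356 CPM in males and 10258 ± 1539 CPM in females.

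Serpina1e therefore made up very different parts of the counted antitrypsin reads. Its share of the reads on the 5 copies was 25.5% to 38.8% in adult males, with a median of 31.4%. In adult females it was 0.468% to 25.5%, with a median of 2.93%, and the highest share was that of adult female 18. In fetal livers it was 22.8% to 36.0% in males and 23.6% to 34.5% in females. The copy that was scarce in most adult females thus held a large part of the counted reads before birth in both sexes. The share of Serpina1c was higher in adults of both sexes, going from a median share of 8.51% in fetal males and 8.88% in fetal females to 18.5% in adult males and 19.7% in adult females.

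**Figure D2:**
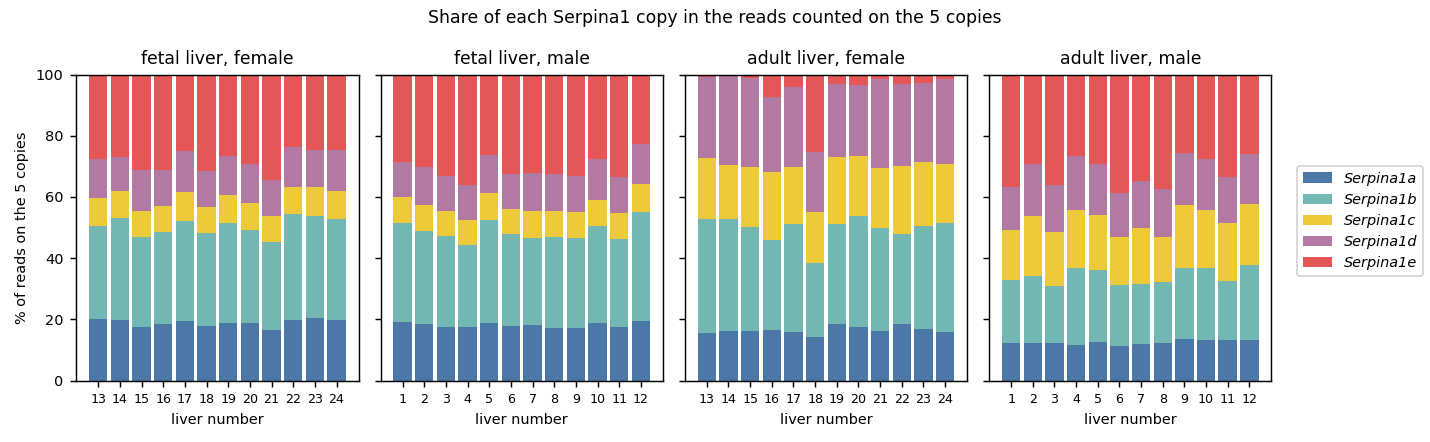
Share of each of the 5 antitrypsin copies in the reads counted on them (percent, stacked bars to 100) in each of the 48 livers, by stage and sex, with the liver number on the horizontal axis. The red part, Serpina1e, makes up 25.5% to 38.8% of the bar in adult males and a median of 2.93% in adult females, with adult female 18 apart from the other females.

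Serpina12, the vaspin gene, was low in liver but clearly split by sex. It ranged from 97.7 CPM to 175 CPM in adult males around a median of 132 CPM, and from 4.24 CPM to 92.6 CPM in adult females around a median of 25.9 CPM. No female reached the lowest male (edgeR adjusted p = 1.60e-06). Adipocyte markers, which would mark fat attached to the liver, summed to a median of 0 CPM in both sexes, with a highest sum of 25.8 CPM in 1 female.

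Serpina6, the corticosteroid carrier, ran the other way. It was 70.6 CPM at the lowest, 113 CPM at the median and 200 CPM at the highest in adult males. In adult females these values were 260, 314 and 481 CPM, so every female exceeded every male (edgeR adjusted p = 5.02e-08). Serpina3m ranged from 223 to 391 CPM in males with a median of 308 CPM and from 521 to 769 CPM in females with a mean of 636 ± 67.0 CPM, again without overlap (edgeR adjusted p = 2.51e-13). The adult sexes thus did not overlap in Serpina3m, Serpina6 and Serpina12. How often this happened over all genes was not computed, so nothing is read from the number of such members.

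Serpina3k, known as contrapsin and as a kallikrein-binding protein, had the highest CPM of the members in adult liver. Its mean was 10293 ± 1717 CPM across male livers against 7443 ± 2181 CPM across female livers, a log2 difference of 0.44 ± 0.14 (edgeR adjusted p = 0.0239) that stayed under the fold threshold. Without adult female 18 it was 0.52 ± 0.13 (edgeR adjusted p = 0.00539) and called. In the class of 8 livers it was 0.69 ± 0.14 (edgeR adjusted p = 0.00591), and in the class of 16 livers 0.30 ± 0.18 (edgeR adjusted p = 0.276). Serpina3n, the acute phase member, had 286 ± 74.9 CPM in the males, 264 ± 35.3 CPM in the females, and did not pass the test (log2 0.08 ± 0.11, edgeR adjusted p = 0.629). Its highest level in males, 425 CPM, was in adult male 11, which also had the highest level of the acute phase gene Saa1 (296 CPM) of the 24 adult livers, a gene singled out here after its values were seen.

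Among markers of other liver cells, 5 of 7 macrophage markers were called lower in adult males, and the 7 summed to 400 ± 77.1 CPM in the males against 577 ± 119 CPM in the females. Over all genes tested 6.48% were called lower and 3.01% higher in males. Of 12 hepatocyte markers 1 was called lower in males, as were 1 of 5 endothelial markers and the only cholangiocyte marker tested, while the only erythroid and the only pancreas acinar marker tested were called higher. The erythroid markers summed to 212 ± 17.7 CPM in the males against 36.1 ± 9.61 CPM in the females. Of the 10 erythroid markers 5 had no read in adult males and 4 none in adult females, so this sum does not stand for the list. The part of cell makeup in the serpin differences was not tested, and in whole liver fewer cells of a type and less RNA per cell cannot be told apart.

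**Figure D3:**
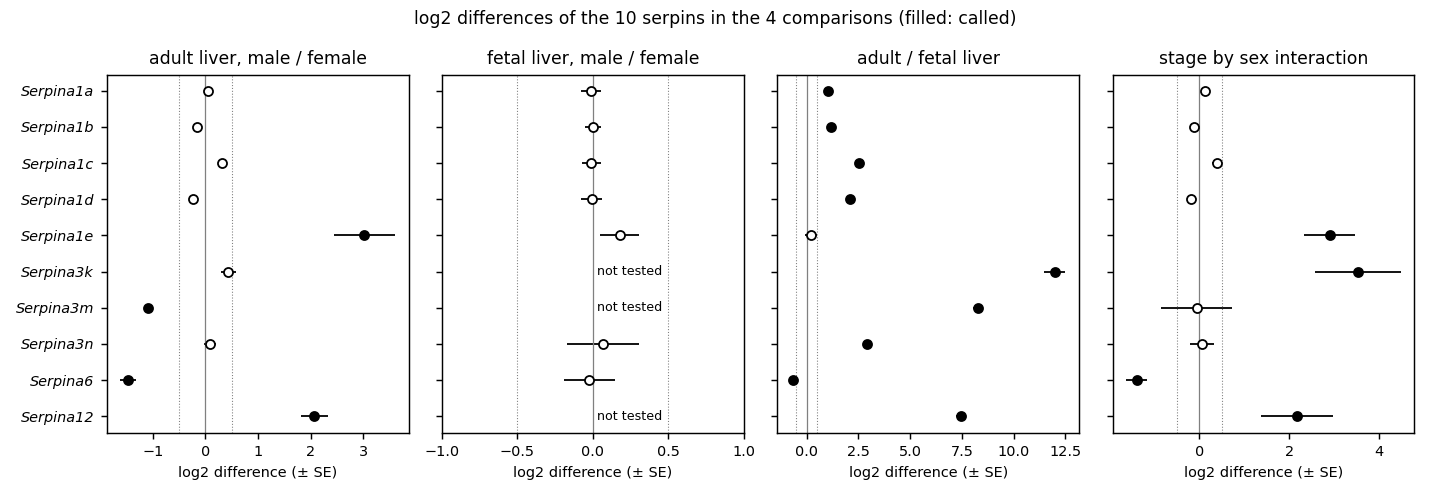
Fitted log2 differences with their standard errors for the 10 serpins in the 4 comparisons, filled where called and open where not, with dotted lines at the fold threshold of 0.5. In adult liver Serpina1e and Serpina12 lie to the right (higher in males) and Serpina3m and Serpina6 to the left, while no tested member is filled in fetal liver.

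Before birth no serpin that could be tested was called between the sexes. In fetal liver 7 of the 10 members passed the filter on low counts, 0 were called by edgeR, and 0 had an unadjusted p under 0.05. DESeq2 also called 0. Over all 12930 genes tested 4.64% were called and 5235 had an unadjusted p under 0.05. The largest difference was that of Serpina1e, 0.18 ± 0.13 (log2, SE) higher in males with an edgeR adjusted p of 0.317. Serpina1e ranged from 895 to 2014 CPM in males with a median of 1497 CPM and from 910 to 1883 CPM in females with a median of 1399 CPM, so the ranges nearly coincided. Serpina6 ranged from 212 to 559 CPM in males with a median of 317 CPM and from 211 to 536 CPM in females with a median of 342 CPM, a log2 difference of -0.02 ± 0.17.

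The 3 members that failed the filter were Serpina3k, Serpina3m and Serpina12, each present in a few reads per fetal liver. Serpina3k became called, at a log2 difference of -3.06 ± 1.09, where the filter was left out (edgeR adjusted p = 0.0535), and it was also called in a fit of the 48 livers together (log2 -3.07 ± 0.84, edgeR adjusted p = 0.00632). Neither call held without fetal female 22, where the log2 difference was -0.59 ± 0.77 (edgeR adjusted p = 0.651) with no filter and -0.67 ± 0.62 (adjusted p = 0.468) in the fit of the livers together. Without fetal females 21 and 22 it was 0.89 ± 0.63 higher in males with no filter (edgeR adjusted p = 0.385).

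The 2 liver stages were compared next. Of the 10 serpins, 8 were higher in adult liver, 1 was lower and 1 was not called, where 67.1% of the 13026 genes tested were called, 31.7% higher and 35.4% lower in adults. The median log2 difference was 2.31 over the 10 members and -0.05 over all genes. The members higher in adults fell into a group that was nearly silent before birth and a group that was already well expressed. For the nearly silent group the call was largely set by the filter on low counts, as given below.

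Serpina3k, Serpina3m and Serpina12 made up the nearly silent group. They had failed the filter in fetal liver and entered this fit through their adult levels. A gene that low in fetal liver could pass the filter only by being higher in adults. Their p-values below therefore add little to the levels, and the sizes of the rises rest on a few fetal reads. Serpina3k rose from a fetal median of 0.525 CPM in males and 0.405 CPM in females to adult medians of 9899 and 7323 CPM, a fitted log2 difference of 11.99 ± 0.51 (edgeR adjusted p = 5.28e-26) that became 13.18 ± 0.30 without fetal female 22 and 13.95 ± 0.23 without fetal females 21 and 22. Serpina3m rose by 8.28 ± 0.23 on the log2 scale (edgeR adjusted p = 5.04e-34), or by 9.01 ± 0.13 without fetal females 21 and 22. Serpina12 rose by 7.45 ± 0.23 (edgeR adjusted p = 6.58e-32) from 0.362 CPM in fetal females and 0.358 CPM in fetal males on average. In each of these genes all 24 adult livers lay above all 24 fetal livers. How often the stages did not overlap over all genes was not computed, so nothing is read from this.

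The already expressed group held the antitrypsin copies other than Serpina1e, and Serpina3n. Serpina1c rose by 2.51 ± 0.05 (log2, SE), Serpina1d by 2.105 ± 0.047, Serpina1b by 1.17 ± 0.04 and Serpina1a by 1.01 ± 0.04. Adult and fetal livers did not overlap in these copies, from which nothing is read, as above. Serpina3n rose by 2.93 ± 0.14, from fetal means of 37.8 CPM in males and 36.6 CPM in females, where the livers ranged from 18.2 to 64.4 CPM. The edgeR adjusted p-values of these 5 genes were between 1.80e-45 and 2.68e-24. Where libraries were scaled by their totals alone, the median of all genes moved to -0.61 and Serpina1a to 0.45, under the fold threshold, and the share of calls that were higher in adults moved from 47.3% to 25.4%.

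Serpina1e and Serpina6 had courses with age that differed by sex. In males Serpina1e rose from fetal to adult liver by 1.63 ± 0.13 on the log2 scale (edgeR adjusted p = 1.63e-11). In females it fell by 1.26 ± 0.55 (edgeR adjusted p = 0.0374), and by 2.31 ± 0.36 without adult female 18 (edgeR adjusted p = 3.22e-06). Over both sexes the difference was 0.21 ± 0.28 (edgeR adjusted p = 0.460), a mean of opposite courses whose sign changed with the scaling (-0.36 by library totals alone) and without adult female 18 (-0.32). Serpina6 dropped by 1.37 ± 0.18 in males (edgeR adjusted p = 1.98e-07), whereas in females it differed by 0.03 ± 0.14 (adjusted p = 0.825). Over both sexes it decreased by 0.64 ± 0.12 (edgeR adjusted p = 1.94e-06).

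Blood-forming cells fill much of the fetal liver, and their markers moved with stage. All 9 neutrophil markers, all 4 megakaryocyte markers, all 6 erythroid markers tested and all 3 B cell markers tested were called lower in adults, and 10 of 12 hepatocyte markers were called higher, with a median log2 difference of 1.45 over the 12. Over all genes tested 35.4% were called lower and 31.7% higher in adults. No neutrophil, megakaryocyte or B cell marker passed the filter in adult liver alone, so these entered the fit through their fetal levels. The neutrophil markers summed to 2277 ± 475 CPM in fetal females and 2.29 ± 1.55 CPM in adult females, and Camp and Ctsg had no read in any adult liver. How far the rise of the serpins followed the share of hepatocytes was not tested. Among the proteases that the members are known to bind, 5 of 7 passed the filter over the 48 livers. Of these, 4 were called lower and 1 higher in adults. In adult liver alone only 1 of the 7 passed the filter. The 4 lower ones thus entered this fit through their fetal levels and could only come out lower. The log2 difference was -8.76 ± 0.20 for the neutrophil elastase gene Elane, -8.72 ± 0.20 for proteinase 3, Prtn3, and 1.58 ± 0.04 for the plasma kallikrein gene Klkb1. Over all adult livers Elane had 1 read in the females and 1 in the males, and Prtn3 had 1 and 6. The sizes of these falls therefore rest on a few adult reads.

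**Figure D4:**
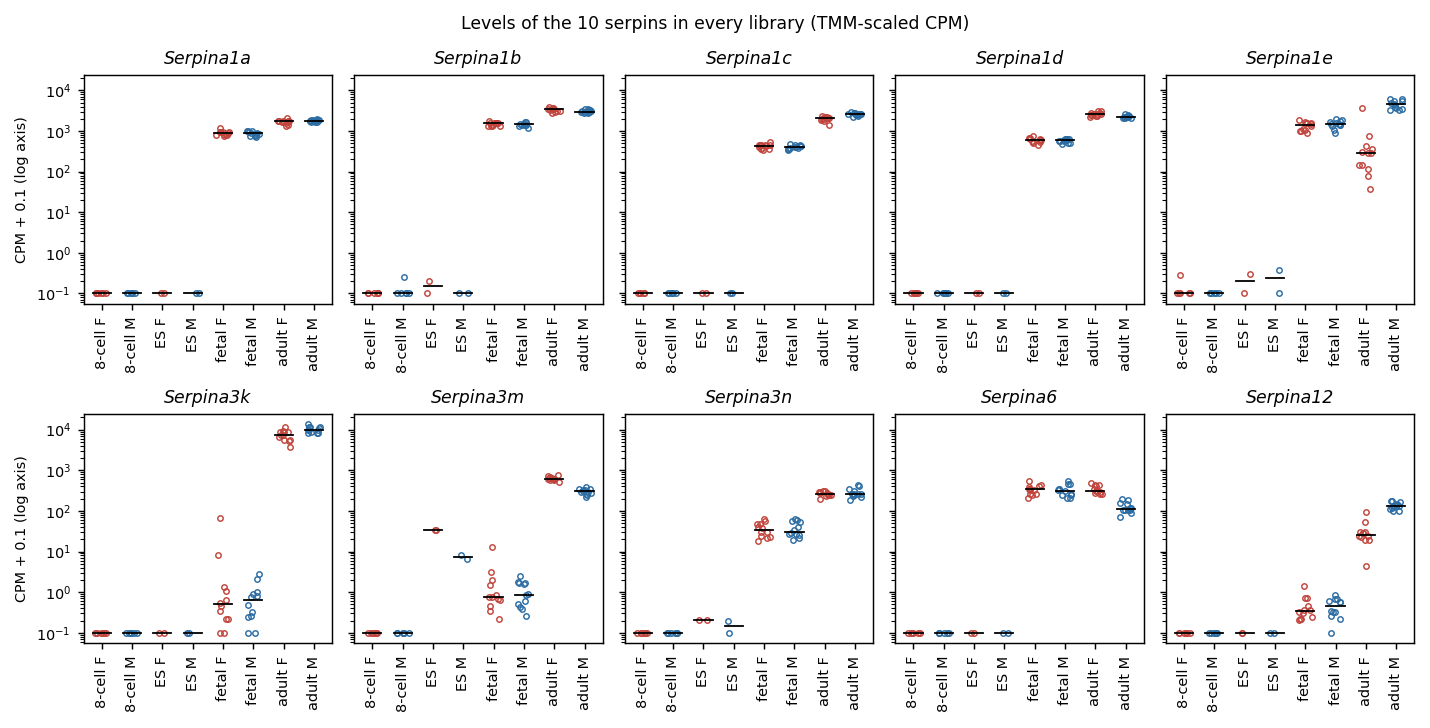
CPM + 0.1 (log axis) of the 10 serpins in each of the 64 libraries, by stage and sex, red for females and blue for males, with a line at each group's median. Serpina3k, Serpina3m and Serpina12 stand near the bottom in most fetal livers and high in adult livers, Serpina1e separates the adult sexes except for 1 female, and Serpina3m is the only member with a level above a few reads in ES cells.

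Whether a sex difference itself differed between the stages was tested as the interaction of stage and sex, in which 13.7% of 13026 genes were called. The fetal sexes in this test also differed in the share of reads on no gene, as given above. Of the 10 members, 4 were called. The adult sex difference exceeded the fetal one by 2.90 ± 0.56 for Serpina1e (edgeR adjusted p = 0.000131), by 2.17 ± 0.80 for Serpina12 (adjusted p = 0.0396) and by 3.52 ± 0.96 for Serpina3k (adjusted p = 0.00489). For Serpina6 it was -1.40 ± 0.23 (edgeR adjusted p = 1.05e-05), with the adult difference the more female of the pair. Serpina3k, Serpina3m and Serpina12 had failed the filter in fetal liver and entered this fit through their adult levels, with fetal levels of a few reads, so their values rest on fetal counts near 0. Serpina1c had an interaction of 0.38 ± 0.09 (edgeR adjusted p = 0.00180), under the fold threshold.

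The calls of Serpina1e and Serpina6 held without each of the livers that stood apart, at 3.90 and -1.46 without adult female 18 and at 2.89 and -1.37 without fetal females 21 and 22. The call of Serpina3k was lost without fetal female 22 (1.13 ± 0.66, edgeR adjusted p = 0.222). The call of Serpina12 was lost without fetal females 21 and 22 (1.58 ± 0.98, adjusted p = 0.248) and without the adult livers under 40% (2.05, adjusted p = 0.1003). Serpina3m was not called by edgeR with all livers (-0.06 ± 0.79, adjusted p = 0.977), was called in the other direction by DESeq2 (2.84, adjusted p = 0.0177) and was called by edgeR without fetal females 21 and 22 (-1.53 ± 0.36, edgeR adjusted p = 0.00134). These 3 genes had so few fetal reads that 1 or 2 libraries decided their fetal mean.

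Adult livers of the same sex also differed from each other, and several serpins varied together. All pairs of members with at least 3 reads in every liver of a group were correlated on the scale log2(CPM + 0.5) over the 12 livers of each of the 4 liver groups, 132 pairs in all, with permutation p-values from 100000 resamples adjusted over the 132. In adult females Serpina1e rose and fell with Serpina3k (Pearson r = 0.86, permutation p = 0.000300, adjusted p = 0.00360, Spearman rho = 0.89, permutation p = 0.000290, adjusted p = 0.00766). Without the 2 females farthest from the median of Serpina1e r was 0.71, and within the class of at least 40% (8 females) it was 0.89. In adult males the same pair had r = 0.75 (permutation p = 0.00698, adjusted p = 0.0297) and rho = 0.78 (permutation p = 0.00392, adjusted p = 0.0287), with r = 0.75 without the 2 farthest and 0.80 within the larger class.

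Serpina6 ran against them. In adult females Serpina6 and Serpina1e had r = -0.77 (permutation p = 0.00155, adjusted p = 0.00974) and rho = -0.81 (permutation p = 0.00214, adjusted p = 0.0238), with r = -0.74 without the 2 farthest females and -0.87 within the class of at least 40%. In adult males the same pair did not pass (r = -0.40, permutation p = 0.192, adjusted p = 0.358, rho = -0.54, permutation p = 0.0741, adjusted p = 0.184). Serpina6 and Serpina3k had r = -0.80 in females (permutation p = 0.00169, adjusted p = 0.0101) and -0.75 in males (permutation p = 0.00525, adjusted p = 0.0231), with rho of -0.82 (permutation p = 0.00196, adjusted p = 0.0238) and -0.80 (permutation p = 0.00302, adjusted p = 0.0245). Without the 2 livers farthest from the median of Serpina3k r was -0.73 in both sexes, and within the larger class it was -0.92 in females and -0.53 in males. In fetal males Serpina1e and Serpina6 also ran apart (r = -0.81, permutation p = 0.00107, adjusted p = 0.00831, rho = -0.72, permutation p = 0.0103, adjusted p = 0.0523), with r = -0.57 without the 2 farthest and -0.88 within the 10 livers of 40% to 45% of mapped reads on genes.

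For Serpina12 no correlation with Serpina1e passed. In adult females its correlation with Serpina1e was r = -0.35 (permutation p = 0.250, adjusted p = 0.429) and rho = -0.01 (permutation p = 0.974, adjusted p = 0.989), with r = 0.38 without the 2 farthest females, among them adult female 18. In adult males it was r = 0.52 (permutation p = 0.0830, adjusted p = 0.199) and rho = 0.46 (permutation p = 0.134, adjusted p = 0.269), with r = 0.42 without the 2 farthest males and 0.74 within the larger class. The difference between sexes in any of these correlations was not tested. Levels in a library share a total and a scaling factor.

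**Figure D5:**
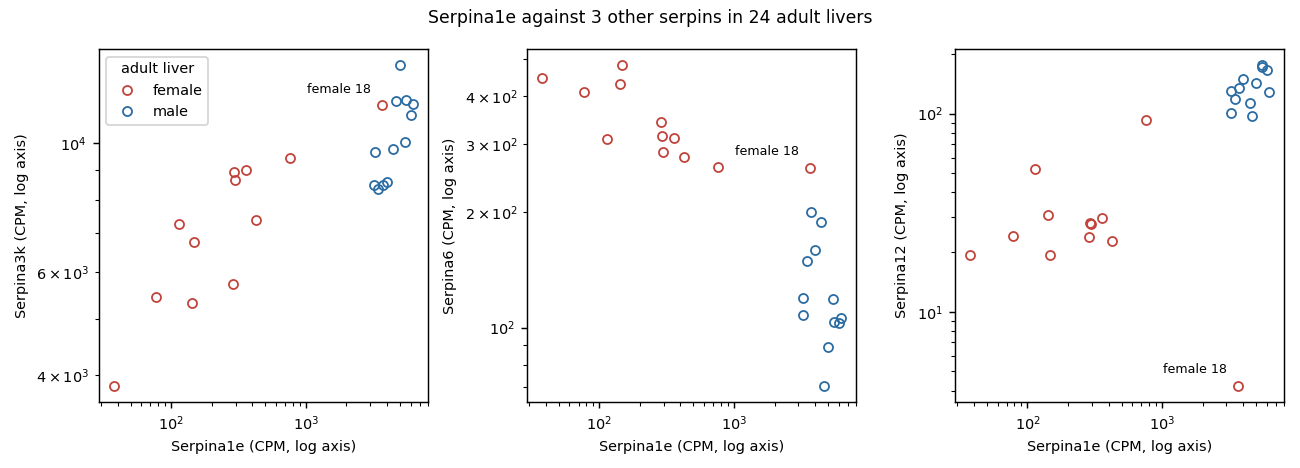
Serpina3k, Serpina6 and Serpina12 against Serpina1e (CPM, log axes) in the 24 adult livers, red for females and blue for males. Within females Serpina3k goes up (r = 0.86) and Serpina6 goes down (r = -0.77) as Serpina1e goes up, and adult female 18 has male-like Serpina1e with the lowest Serpina12 level (4.24 CPM).

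The order of the members was compared per kilobase of transcript. In adult males Serpina3k led with 5004 ± 835 CPM per kilobase, followed by Serpina1e with 2914 ± 688, Serpina1c with 1898 ± 151, Serpina1b with 1749 ± 151, Serpina1d with 1624 ± 110 and Serpina1a with 1127 ± 72.1. This is the order of the means, and no test between members was run on these values. Serpina3m, Serpina3n, Serpina6 and Serpina12 followed at 183 ± 29.0, 139 ± 36.3, 78.6 ± 24.7 and 36.7 ± 7.09. In adult females Serpina1e came seventh, at 350 ± 636, or eighth, at 170 ± 131, without adult female 18. In fetal livers it came first, at 857 ± 202 in females and 949 ± 202 in males, level with Serpina1b at 848 ± 83.0 and 831 ± 80.4. The order among antitrypsin copies hung on how length was counted. Per kilobase of windows of 100 bases found in no other gene, Serpina1c came first in adult males with 6676 CPM, ahead of Serpina3k with 5525, and in adult females with 5227 CPM, ahead of Serpina3k with 3995. Counted this way, Serpina1e ranked 4 in fetal females with 1072 CPM, where Serpina1a led with 1210. In fetal males Serpina1e had 1188 CPM and Serpina1a 1178, so its first place in fetal livers also hung on how length was counted.

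Other clade A serpins in the same tables gave a comparison, with 15 found in the files. In adult liver 6 passed the filter, and 2 were called higher and 2 lower in males, against 3.01% and 6.48% of all genes tested. The kallistatin pseudogene Serpina4-ps1 was 2.29 ± 0.51 higher in males (edgeR adjusted p = 0.00190), and its level of 169 CPM in adult female 18 was the highest of the females. The X-linked thyroxine carrier Serpina7 was 1.37 ± 0.22 higher in males (edgeR adjusted p = 3.61e-05). Serpina3f (-0.64 ± 0.24) and Serpina3g (-0.69 ± 0.20) were lower in males, and the values were -0.02 ± 0.10 for Serpina10, which encodes the protein Z-dependent inhibitor, and 0.28 ± 0.11 for Serpina11. In fetal liver 6 passed the filter and edgeR called 0, with 0 at an unadjusted p under 0.05, against 5235 of all 12930 genes. From fetal to adult liver 8 passed, and Serpina3f, Serpina3g, Serpina4-ps1, Serpina7, Serpina9 and Serpina10 were called higher and Serpina5, which encodes the protein C inhibitor, lower. Over all genes tested 31.7% were called higher and 35.4% lower. Serpina3f and Serpina9 failed the filter in fetal liver. Serpina5 failed it in adult liver, with 1 read over all adult females and 12 over all adult males. The direction of these 3 calls was largely set by the filter, so no value is given. Serpina11 had a log2 difference of 0.45 ± 0.10. The interaction, called for 13.7% of all genes tested, was called for Serpina4-ps1 (1.97 ± 0.66) and Serpina7 (1.42 ± 0.35). It was also called for Serpina5, which had at most 3 reads in an adult liver and is given no value.

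Of the liver serpins of other clades 5 passed the filter in adult liver and 0 were called between the sexes by edgeR at the fold threshold of 0.5. Over all genes tested 9.49% were called. An unadjusted p under 0.05 was found for 4 of these 5 serpins and for 3820 of all 10372 genes tested. The log2 differences of these 5 serpins lay between -0.36 and -0.07. From fetal to adult liver 4 of these 5 were called higher, against 31.7% of all genes tested, among them Serping1 (1.97 ± 0.05) and the antithrombin gene Serpinc1 (1.67 ± 0.04). Of 15 acute phase genes tested in adult liver 2 were called higher and 3 lower in males, against 3.01% and 6.48% of all genes tested. Apcs was among the lower ones (-1.34 ± 0.14). Of 12 hormone carriers, receptors and liver regulators, 1 was called, the growth hormone-responsive repressor gene Bcl6, at 1.79 ± 0.43 higher in males. A count of 1 in 12 is near the 9.49% called over all genes tested.

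Outside the liver the serpins were all but absent, with 1 exception. In the 12 embryos, whose own markers were clear (all 7 pluripotency markers had reads), 1 read of Serpina1b was found in a male and 1 read of Serpina1e in a female, and the other 8 members had 0 reads. A count of 0 allows up to 3 reads, or 0.388 to 0.644 CPM in an embryo by library totals alone, without TMM scaling. In ES cells Serpina3m was expressed in all 4 lines, at 34.5 ± 0.279 CPM (SD, n = 2) in the female lines (332 and 344 reads) and 7.16 ± 1.08 CPM (SD, n = 2) in the male lines (67 and 83 reads). No test was run on 2 lines a sex. The other 9 members had at most 3 reads in a line. ES lines also held reads of other Serpina3 genes, Serpina3i, at 13.2 CPM in females and 12.6 CPM in males, and Serpina3h, at 6.47 and 2.15 CPM. Serpina3k, the member most like Serpina3m in sequence and the one with the highest CPM in adult liver, had 0 reads in the ES lines.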

How the data were processed

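RNA-seq was analysed in 64 libraries of C57BL/6 mice (C57BL/6 J in the study's methods): 12 eight-cell embryos, 4 ES cell lines, 24 fetal and 24 adult livers. The authors deposited raw counts of reads per gene symbol for each library. Per the study's methods and processing notes, reads were aligned to mm10 with TopHat2 (2.0.4), Bowtie2 (2.1.0) and SAMtools (0.1.18), duplicates were removed with Picard, and reads on genes of the UCSC annotation were counted with HTSeq, which leaves out reads aligned to several places. The strand setting and read length were not given in the sources used here. Rows for reads on no gene were left out of library sizes.

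Groups came from the stage and gender labels. Counts were tested with edgeR (4.0.16, in R 4.3.3): TMM factors, filterByExpr, a robust quasi-likelihood fit and two-sided tests, with Benjamini-Hochberg adjustment over all genes tested. A gene was called at an adjusted p under 0.1 with an absolute log2 difference above 0.5, as in the study. Adult sexes and fetal sexes were fitted apart, and stage and its interaction with sex in the 48 livers. The members, the gene lists and these tests were chosen with earlier results of these data known. The text names the 10 members, every other clade A serpin past the filter, and at most 4 called genes of each other list. The share of mapped reads on genes, used to form classes of livers, took mapped reads from the study's sequencing statistics. Embryos and ES lines were described without a test. P-values measure the spread between animals labelled as separate samples.

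Alternatives were DESeq2 (1.42.0), its size factors within edgeR, library totals alone, no filter, other thresholds, 1 fit of the 48 livers, classes and covariates by share of reads on genes, a single sex, and a replicate block. Fits without adult female 18 and without fetal females 21 and 22 were added after seeing the data. On simulated counts the adult test recovered 100% of 95 genes changed by 1 (log2) and the interaction test 83 of 100. Coordinates and promoters came from RefSeq on GRCm38.p6 and coding sequences from GENCODE. Promoters were found for 7 of the 10 members.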

Additional observations from a re-analysis of the deposited data

Results flagged for a closer look

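In embryos 1 read was enough for a library to be listed here. Serpina1b had 0.161 CPM (1 read) in a male embryo and Serpina1e had 0.184 CPM (1 read) in a female embryo, with 0 reads in the other 5 embryos of each group. Any group of 6 with a single read is listed in this way, 1 read lies below the limit of 3 reads used here, and nothing is read from these values.

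For 4 serpins the adult difference between the sexes departed from the fetal one. The interaction of stage and sex was 2.90 ± 0.56 (log2, SE) for Serpina1e and -1.40 ± 0.23 for Serpina6, and both passed with and without the livers that stood apart. It was 3.52 ± 0.96 for Serpina3k with all 48 livers, 1.13 ± 0.66 without fetal female 22 and -0.41 ± 0.57 without fetal females 21 and 22, where it did not pass the test. For Serpina12 it was 2.17 ± 0.80 with all livers, 2.09 ± 0.85 without fetal female 22 and 1.58 ± 0.98 without both.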

How the results depend on the processing

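The number of members called moved by no more than 1.5 times in 47 of 50 alternatives. It became 8 in adult liver with no fold threshold, and it became 1 in fetal liver with no filter on low counts and 1 in the single fit of the 48 livers, Serpina3k in both. Several differences changed sign. In adult liver Serpina3n was -0.059 in the livers with at least 40% of mapped reads on genes. In fetal liver the share of reads on genes as a covariate gave 0.043 for Serpina1a, -0.43 for Serpina3n and 0.34 for Serpina6, and the livers of 40% to 45% gave 0.021, -0.044 and 0.0023. Serpina1b was -0.0016 with no filter, -0.025 in the single fit, and -0.016 and -0.039 in these fits without fetal female 22. Leaving out fetal females gave it -0.018 to -0.013 and Serpina6 -0.054 to 0.00014, or 0.0011 with no filter. The stage difference of Serpina1e was -0.36 by library totals alone, -0.32 with the replicate block, -0.32 to 0.22 with livers left out, -1.26 in females and -2.31 in females without adult female 18. That of Serpina6 was 0.034 in females and 0.053 without adult female 18. In the interaction Serpina3m was 2.84 by DESeq2 (adjusted p = 0.0177), Serpina3n was -0.13 without the livers under 40%, and Serpina3k ranged from -0.41 to 3.56 with livers left out. The cause was not tested.

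Fetal and adult livers of 1 sex share numbers in their titles. Their deviations from the group means correlated by over 0.1 in 0 of 24 pairs, so no shared pattern of expression was seen. What else livers with the same number may share was not tested. With the replicate block 3 members were called in the interaction, and Serpina3k was 1.67 (adjusted p = 0.301). Leaving out each replicate in turn was not run, since liver groups had 12. Depth limits Serpina3k, Serpina3m and Serpina12 in fetal liver, the embryos and most ES values.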
